A study of Mus musculus with 8 samples.

Results

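Expression of 10 genes that set epithelial or mesenchymal character was followed in 8 mouse mammary tumours that arose from the carcinoma line 4T1: the repressors Snai1, Snai2, Twist1, Twist2, Zeb1 and Zeb2, the splicing factors Esrp1 and Esrp2, and the epithelial transcription factors Grhl2 and Ovol1. They were chosen by name, through the RefSeq accession that each probe carries, and every probe was kept. The array had 13 probes for these 10 genes, out of 55681 probes and 20145 named genes in all, with a pair of probes each for Zeb2, Esrp1 and Grhl2. All 13 were among the 39463 probes tested, and 12 of the 13 were well above background on all 8 arrays. The exception was Ovol1, which met the filter with 3 PRH arrays and 1 control array.

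The tested tumours came from 4T1 cells infected for 24 h at a multiplicity of infection of 50 with Adenoviral-PRH (4 arrays, called PRH here). The control tumours came from 4T1 cells infected in the same way with an empty adenovirus (4 arrays). In both groups 250000 cells were placed in the no. 3 fat pad of female BALB/C mice aged 6 to 8 weeks, and tumours were taken on day 22. Both groups therefore carried an adenovirus, the virus was given only before implantation, and all tumours derive from 1 cell line. The mice carry the numbers 1, 2, 3 and 5 in each group. The labels differ on the material, since the design text has RNA from each tumour and the extraction protocol names endothelial isolates. Markers of both kinds of cell were detected: 10 of 10 genes of carcinoma epithelium and 9 of 10 endothelial genes passed the background filter, so these do not settle the material.

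In the epithelial-mesenchymal transition, epithelial cells loosen their junctions and take on a migratory, mesenchymal form, a change studied in mammary carcinoma for its link to spread. SNAIL and ZEB proteins are zinc finger repressors that bind the E-box CACCTG, in the gene of E-cadherin among others, and TWIST proteins are basic helix-loop-helix factors that also lower E-cadherin. On the epithelial side, ESRP1 and ESRP2 are RNA-binding proteins that keep the epithelial splice forms of FGFR2, CD44 and p120 catenin. GRHL2 activates junction genes and opposes ZEB1, and OVOL1 belongs to a zinc finger family that also represses ZEB1. PRH is the homeodomain transcription factor encoded by Hhex.

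Levels are log2 signals relative to the 75th percentile of each array, so a value of 0 is the signal of that percentile. They compare arrays for a given probe and do not rank genes, because probes differ in brightness. Differences are PRH minus control on the log2 scale, with the standard error (SE) of limma's moderated fit and its p adjusted by the Benjamini-Hochberg method over all 39463 probes, and a probe was called at an adjusted p under 0.05. Between 72.22% and 73.9% of probes were well above background on the PRH arrays and 64.17% to 69.76% on the control arrays. The PRH arrays lay in slide column 1 and the control arrays in slide column 2, so the effect of the column and that of the group cannot be told apart.

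The probe for Hhex was read first as a check of the labels. It had log2 levels of -1.71, -1.46, -1.79 and -1.72 in PRH tumours 1, 2, 3 and 5, against -0.54, -0.33, -0.69 and -0.78 in the control tumours of the same numbers. The groups did not overlap, and the difference was -1.09 (SE 0.148, adjusted p = 0.00674), so Hhex was lower in the tumours labelled PRH. The level at day 22 thus goes against the label. The labels give neither the species nor the sequence of the PRH insert, so whether the probe reads it was not tested. Whether the labels of the groups were exchanged was not tested either, and an exchange would turn every direction given here. Each direction below is that of the libraries as labelled.

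Of the 13 probes 2 were called lower in PRH-labelled tumours (15.4%) and 0 were called higher by limma. Over all tested probes 10.1% were called lower and 16.1% higher, 26.2% together. In a fit of only the probes well above background on all 8 arrays, 14% were called lower and 17.5% higher. There 3 of 12 member probes were called lower, Twist1 beside the pair of Zeb2. The median difference in that fit was -0.28 for the repressors and 0.33 for the epithelial factors, beside 0.08 over its probes. With the brightest probe per gene 1 of the 10 members was called lower, beside 8.67% of the probes kept in that fit. At an unadjusted p under 0.05 the members held 3 lower probes and 1 higher probe, beside 15465 of the 39463 tested probes in either direction. Both probes called in the main fit were those of Zeb2. They were also the only member probes whose groups did not overlap, against 12.7% of all tested probes that were separated with PRH lower. No member probe was separated with PRH higher, against 18.8% of all tested probes. The median difference was -0.28 over the 7 probes of the repressors and 0.46 over the 6 probes of the epithelial factors, beside 0.22 over all tested probes. The median of the epithelial factors was 0.22 without control array 3, beside 0.18 over all probes, and 0.0 after median centring, 0.17 with normexp background correction and 0.19 in the authors' values. The median of the repressors was -0.75 after median centring and -0.22 with normexp and in the authors' values. Over all tested probes the median was -0.25 after median centring, 0.01 with normexp and 0.02 in the authors' values. Median centring shifts every probe of an array alike, so it left the distance of the members from the median of all probes unchanged.

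**Figure D1:**
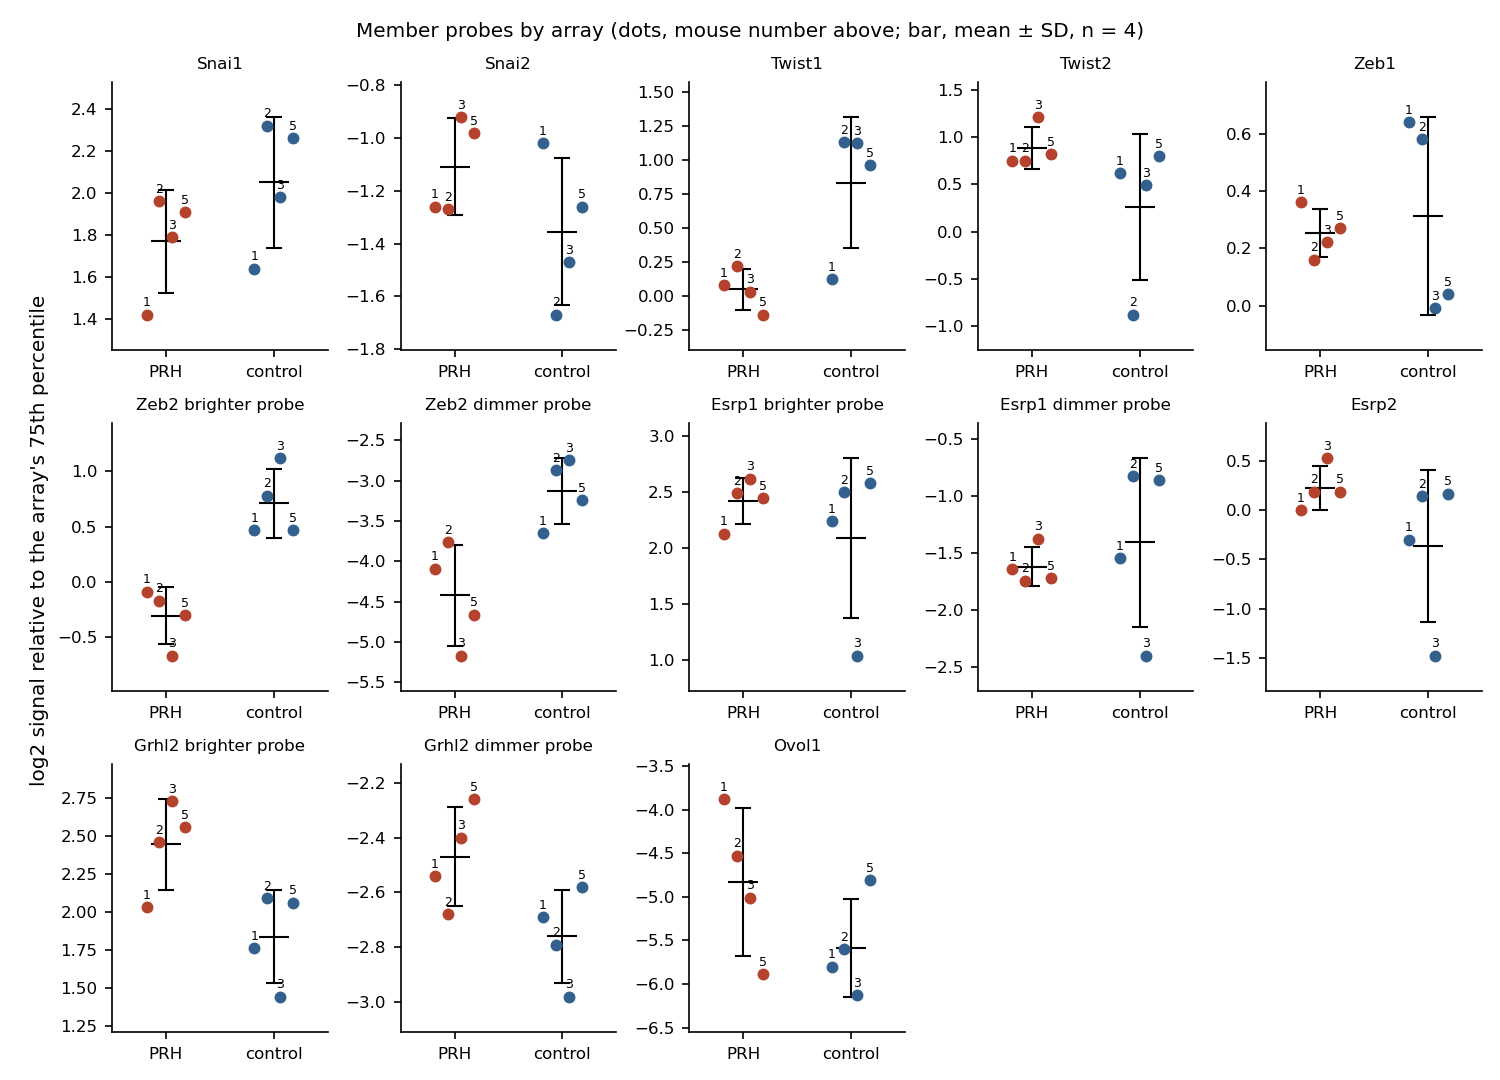
Log2 signal of each of the 13 member probes relative to the 75th percentile of its array, in PRH arrays (red, left) and control arrays (blue, right), with the mouse number above each dot. The crossbar is the group mean and the whiskers 1 SD (n = 4 each). The groups are separate for both Zeb2 probes and overlap for the other 11.

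In the main fit Zeb2 was the only member called lower. The brighter probe had log2 levels of -0.09, -0.17, -0.67 and -0.3 in PRH-labelled tumours 1, 2, 3 and 5, against 0.47, 0.78, 1.12 and 0.47 in control tumours. Every PRH array was below every control array, with tumour 3 at the extreme in both groups. The difference was -1.02 (SE 0.205, adjusted p = 0.012), a 2.02-fold decrease. Relative to the median difference of all probes it was -1.23.

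The dimmer Zeb2 probe moved the same way. It read -4.09, -3.76, -5.17 and -4.66 in PRH-labelled tumours, against -3.65, -2.87, -2.75 and -3.24 in control tumours. These levels were well above background on all 8 arrays, with PRH tumour 2 and control tumour 1 close to each other. The difference was -1.29 (SE 0.344, adjusted p = 0.0293), a 2.45-fold decrease. The call of this probe was lost without PRH array 1, 3 or 5 or without control array 2, 3 or 5, with adjusted p-values up to 0.0786, whereas the brighter probe passed whichever array was left out, with adjusted p-values up to 0.0364. Under centring on spike-in probes neither passed (adjusted p = 0.101 for the brighter and 0.111 for the dimmer), and in that scaling 4 probes passed of all 39463.

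Macrophages also use Zeb2, which maintains the identity of tissue macrophages in mice. Of 11 probes for macrophage genes 4 were called lower and 0 higher (36.4% called), beside 10.1% lower and 16.1% higher over all tested probes. Their median difference was -0.36. At an unadjusted p under 0.05 the counts were the same, beside 15465 of the 39463 tested probes in either direction. The called probes belonged to the mannose receptor Mrc1 (-1.16, adjusted p = 0.0268), the lysozyme Lyz2 (-0.86, adjusted p = 0.0167), the surface receptor Adgre1 (-0.71, adjusted p = 0.0281) and the growth factor receptor Csf1r (-0.6, adjusted p = 0.0332). Other probes of Adgre1 (0.02, adjusted p = 0.953) and Csf1r (0.0, adjusted p = 0.99, and -0.52, adjusted p = 0.214) and those of the complement genes C1qa (0.12) and C1qb (-0.06) did not pass. Of the 4 calls only that of Lyz2 held in all 5 scalings and whichever array was left out. Mrc1 lost its call without PRH array 2, 3 or 5. Adgre1 passed in 3 of 5 scalings and lost its call in 6 of 8 fits that left out an array, passing only without PRH array 2 or control array 1. Csf1r passed in 2 of 5 scalings and lost its call without PRH array 2, 3 or 5 or control array 2 or 3. The summed log2 level of the 11 probes overlapped, at 7.28 to 7.79 in PRH and 7.4 to 8.06 in control arrays. Medians were also negative for fibroblasts (-0.34, 1 of 11 probes called lower), T and NK cells (-0.29, 1 of 12 called lower) and neutrophils (-0.07, 1 of 7 called higher). They were positive for the other marker lists, among them endothelial cells (0.08) and pericytes and smooth muscle (0.21). The part of any of these cell types in the Zeb2 difference was not tested. In bulk samples fewer cells of a type and less RNA per cell cannot be told apart.

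Zeb1, the other ZEB gene, did not pass the test. Its probe read 0.36, 0.16, 0.22 and 0.27 in PRH-labelled tumours, against 0.64, 0.58, -0.01 and 0.04 in control tumours. The PRH values lay inside the control range, with control tumours 1 and 2 above them and 3 and 5 below. The difference was -0.06 (SE 0.187, adjusted p = 0.819), with a 95% interval of -0.5 to 0.37. It was -0.53 (adjusted p = 0.0748) after median centring and turned positive without control array 1 (0.05) or 2 (0.03).

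Sequence upstream of the start was at hand in RefSeq (GRCm38.p6) for 4 of the 10 genes, Snai1, Twist1, Twist2 and Zeb2. The 250 bases before the start are shown for Zeb2, because it carries the called difference, and for Snai1, because it holds the E-box that SNAIL and ZEB proteins bind. Capitals mark ATTAA (or TTAAT on the other strand), the core of the site bound by PRH, in Zeb2 at chr2:45117443-45117692 (minus strand), and CACCTG (or CAGGTG) in Snai1 at chr2:167537945-167538194 (plus strand).
Zeb2: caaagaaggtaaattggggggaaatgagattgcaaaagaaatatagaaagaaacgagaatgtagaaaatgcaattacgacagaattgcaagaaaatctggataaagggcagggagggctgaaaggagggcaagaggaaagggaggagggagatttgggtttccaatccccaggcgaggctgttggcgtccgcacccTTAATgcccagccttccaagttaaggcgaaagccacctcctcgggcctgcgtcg
Snai1: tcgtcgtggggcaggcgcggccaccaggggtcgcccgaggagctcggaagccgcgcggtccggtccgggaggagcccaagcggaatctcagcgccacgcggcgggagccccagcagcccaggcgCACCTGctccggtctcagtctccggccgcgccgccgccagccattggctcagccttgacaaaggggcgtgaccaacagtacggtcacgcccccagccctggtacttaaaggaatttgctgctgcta
The Zeb2 match began 54 bases before the start, and the windows of 3 other annotated Zeb2 starts had none. The Snai1 match began 126 bases before the start. Among 32851 promoter windows, which also take in the bases just after each start, 24.9% held ATTAA or TTAAT and 17.2% held CACCTG or CAGGTG. Such matches are common and describe the letters only.

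Snai1 and Snai2, the zinc finger repressors SNAIL and SLUG, did not pass the test. Snai1 had log2 levels of 1.42, 1.96, 1.79 and 1.91 in PRH-labelled tumours, against 1.64, 2.32, 1.98 and 2.26 in control tumours. Tumour 1 was the lowest of each group, and each PRH value was below the control value of the same number, but the ranges overlapped. The difference was -0.28 (SE 0.201, adjusted p = 0.332), with a 95% interval of -0.75 to 0.19. It was -0.75 (adjusted p = 0.0602) after median centring and -0.16 without PRH array 1. Snai2 had -1.26, -1.27, -0.92 and -0.98 in PRH-labelled tumours, against -1.02, -1.67, -1.47 and -1.26 in control tumours. Control tumours 1 and 5 lay at or within the PRH range, and control tumours 2 and 3 lay below it. The Snai2 difference was 0.25 (SE 0.178, adjusted p = 0.334), close to the median of all probes, and turned to -0.22 when arrays were centred on their medians. It was 0.04 with normexp, 0.06 in the authors' values and 0.14 without control array 2.

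Twist1 lay at the threshold. Its probe read 0.08, 0.22, 0.03 and -0.14 in PRH-labelled tumours, against 0.12, 1.13, 1.12 and 0.96 in control tumours. Control tumour 1 stood with the PRH arrays, and the other 3 control tumours were well above all of them. The difference was -0.78 (SE 0.244, adjusted p = 0.0503), with a 95% interval of -1.35 to -0.21. It passed in each of the 4 other scalings drawn in the plot by scaling, from -1.25 after median centring (adjusted p = 0.022) to -0.75 after quantile normalization (adjusted p = 0.0452), the authors' values among them (-0.77, adjusted p = 0.0405). Of the 8 fits that left out an array it passed only without control array 1 (-1.02, adjusted p = 0.00195). The other 7 had adjusted p-values up to 0.123, and it did not pass under spike-in centring (adjusted p = 0.158).

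Twist2, the close relative of Twist1, ran the other way in its values. It had 0.75, 0.75, 1.21 and 0.82 in PRH-labelled tumours, against 0.62, -0.88, 0.49 and 0.8 in control tumours. Control tumour 2 was far below the other 7 arrays, which lay between 0.49 and 1.21. The difference was 0.63 (SE 0.366, adjusted p = 0.244), with a 95% interval of -0.22 to 1.48, and it did not pass in any of the 5 scalings. Without control array 2 it was 0.25, and after median centring 0.16.

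**Figure D2:**
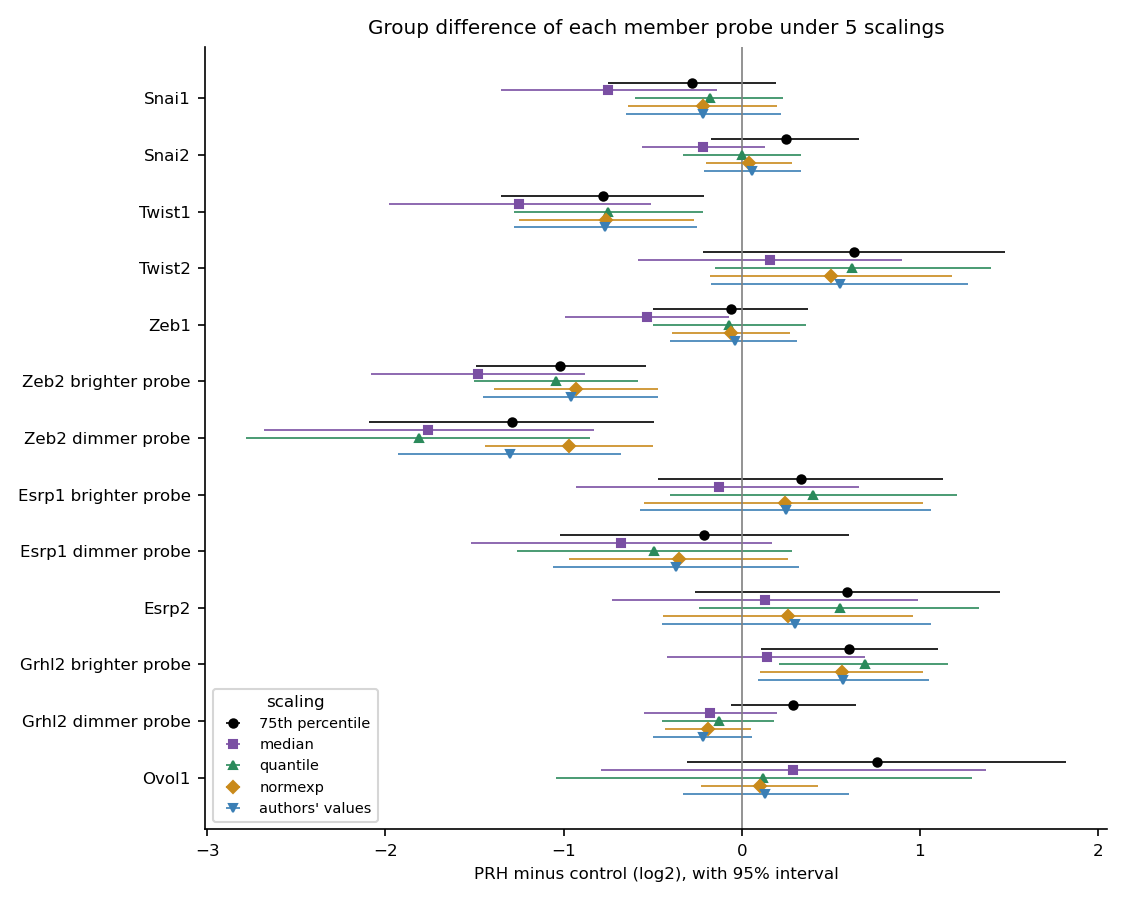
Difference of each member probe, PRH minus control, on the log2 scale under 5 scalings, with the 95% interval as a line. Both Zeb2 probes lie below 0 with their whole interval in every scaling shown, and Twist1 does too. Snai2, the brighter Esrp1 probe and the dimmer Grhl2 probe change sign.

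Esrp1, the splicing factor of epithelial cells, did not pass on either probe. The brighter probe read 2.13, 2.49, 2.62 and 2.45 in PRH-labelled tumours, against 2.24, 2.5, 1.04 and 2.58 in control tumours. Control tumour 3 was low and the other 7 arrays were close together. The difference of 0.33 (SE 0.344, adjusted p = 0.495) was -0.02 without control array 3 and -0.13 after median centring. The dimmer probe read -1.64, -1.74, -1.37 and -1.72 in PRH-labelled tumours, against -1.54, -0.82, -2.4 and -0.86 in control tumours. Its control values spread to both sides of the PRH values, and the difference was -0.21 (SE 0.35, adjusted p = 0.67). It was -0.02 without control array 2, -0.03 without control array 5, -0.54 without control array 3 and -0.68 after median centring.

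Esrp2, which shares most of its splicing targets with Esrp1, had 0.0, 0.19, 0.53 and 0.19 in PRH-labelled tumours, against -0.3, 0.14, -1.48 and 0.17 in control tumours. Control tumour 3 was again the low array. The difference was 0.59 (SE 0.368, adjusted p = 0.268), with a 95% interval of -0.26 to 1.45, and it was 0.22 without control array 3. It was 0.13 after median centring, 0.26 with normexp and 0.3 in the authors' values.

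Grhl2 came nearest to a call among the epithelial factors. Its brighter probe had 2.03, 2.46, 2.73 and 2.56 in PRH-labelled tumours, against 1.76, 2.09, 1.44 and 2.06 in control tumours. PRH tumour 1 fell just below control tumours 2 and 5, and the other 3 PRH tumours were above every control. The difference was 0.6 (SE 0.214, adjusted p = 0.074), with a 95% interval of 0.11 to 1.1. It passed after quantile normalization (0.69, adjusted p = 0.0431) and was 0.14 (adjusted p = 0.702) after median centring. The dimmer Grhl2 probe had -2.54, -2.68, -2.4 and -2.26 in PRH-labelled tumours, against -2.69, -2.79, -2.98 and -2.58 in control tumours. Its difference of 0.29 (SE 0.149, adjusted p = 0.19) turned negative in the 4 other scalings and under spike-in centring, reaching -0.22 in the authors' values, so the probes do not give Grhl2 a common direction.

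Ovol1 was near the limit of detection. It was well above background on PRH arrays 1, 2 and 3 and on control array 5, and on no other. Its levels were -3.88, -4.53, -5.01 and -5.89 in PRH-labelled tumours, against -5.8, -5.6, -6.13 and -4.81 in control tumours. The difference was 0.76 (SE 0.459, adjusted p = 0.259), with a 95% interval of -0.31 to 1.82. It was 0.12 after quantile normalization, 0.1 with normexp, 0.13 in the authors' values, 0.29 after median centring and 0.44 without PRH array 1. Markers of skin keratinocytes were highest on the same 4 arrays: their summed log2 level was 7.01, 6.09, 6.4 and 4.91 in PRH-labelled tumours, against 3.82, 3.91, 3.07 and 5.56 in control tumours. Of their 10 probes 1 was called higher and 0 lower, beside 16.1% and 10.1% of all tested probes, and their median difference was 2.14. Their part in the Ovol1 values was not tested.

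Control tumour 3 was the lowest of the 8 arrays for all 5 probes of Esrp1, Esrp2 and Grhl2, which was seen after the values were known. It was also the lowest for 8 of 11 probes of carcinoma epithelium, for 18 of 28 probes of epithelial adhesion genes and for 9 of 10 endothelial probes, and the highest for 8 of 11 macrophage probes. The same array was lowest for 6 of 8 probes of pericytes and smooth muscle, 7 of 10 of keratinocytes, 5 of 7 of neutrophils and 5 of 6 of adipocytes. For skeletal muscle this was 3 of 7, for T and NK cells 1 of 12 and for fibroblasts 0 of 11. The low values are thus not particular to epithelial genes, and the share over all tested probes was not counted. The carcinoma markers had a median difference of 0.38, with 1 of 11 called higher and 0 lower, beside 16.1% and 10.1% of all tested probes. What part the makeup of this tumour has in its Esrp1, Esrp2 and Grhl2 values was not tested.

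**Figure D3:**
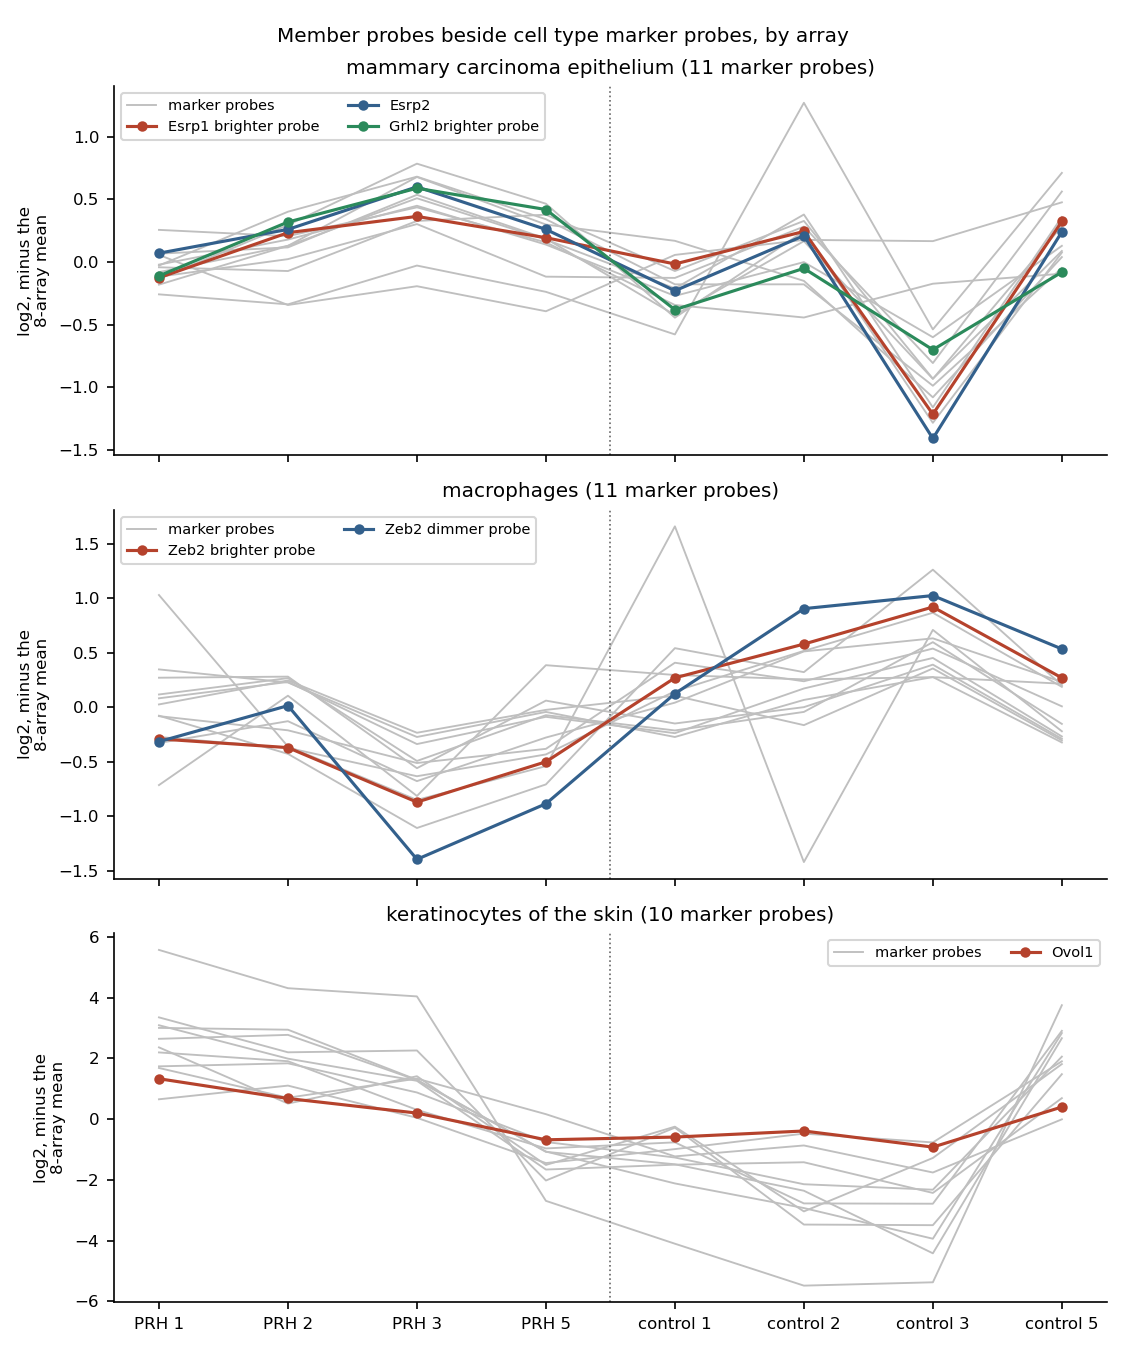
Log2 level of member probes (coloured) and of cell type marker probes (grey) on each array, each with its mean over the 8 arrays taken off; lines join the arrays of 1 probe and PRH arrays are left of the dotted line. Esrp1, Esrp2, Grhl2 and most carcinoma markers dip on control array 3, both Zeb2 probes are higher on all control arrays, and Ovol1 is high where keratinocyte markers are.

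Within an array the scaling cancels, so the difference between 2 probes of the same array was also compared between groups. For 6 pairs all 70 arrangements of the arrays were enumerated in an exact permutation test (two-sided), which cannot give a p below 0.0286. After adjustment over the 6 pairs none passed. In 3 pairs the groups did not overlap, each with an exact p = 0.0286 and an adjusted p = 0.0571. The pair of Esrp1 probes was entered because their group differences had opposite signs, so it was chosen from the values. The other pairs were set by family, with Grhl2 set beside Ovol1. Given 6 pairs and this lowest p, 3 separated pairs cannot fall below 0.0571. The adjusted values thus rest on how many pairs were entered and cannot decide whether these 3 pairs differ.

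Zeb2 minus Zeb1 was -0.45, -0.33, -0.89 and -0.56 in PRH-labelled tumours, against -0.17, 0.2, 1.13 and 0.43 in control tumours. All 4 PRH values were below all 4 control values, a group difference of -0.95. Twist1 minus Twist2 was -0.67, -0.53, -1.18 and -0.96 in PRH-labelled tumours, against -0.5, 2.0, 0.63 and 0.16 in control tumours. PRH tumour 2 and control tumour 1 almost met, and the group difference was -1.41. Without control array 2 it was -0.93.

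Esrp1 minus Esrp2 was 2.13, 2.3, 2.08 and 2.25 in PRH-labelled tumours, against 2.54, 2.36, 2.52 and 2.41 in control tumours. The spread was narrow in both groups, with means of 2.19 ± 0.1 and 2.46 ± 0.08 (SD, n = 4 each), and control tumour 3 was not apart here. The group difference of -0.26 shrank to -0.03 (exact p = 0.743) with normexp background correction and to -0.06 (exact p = 0.457) in the authors' values. The brighter minus the dimmer Esrp1 probe averaged 4.04 ± 0.2 in PRH-labelled tumours and 3.5 ± 0.2 in control tumours (SD, n = 4 each), with the groups meeting at tumour 1 and an exact p = 0.0571. Snai1 minus Snai2 (-0.53, exact p = 0.143) overlapped between the groups. Grhl2 minus Ovol1 overlapped too (-0.15, exact p = 0.857), but Ovol1 was not well above background on 4 of the 8 arrays, and the value was 0.46 with normexp, so this pair bears little weight.

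**Figure D4:**
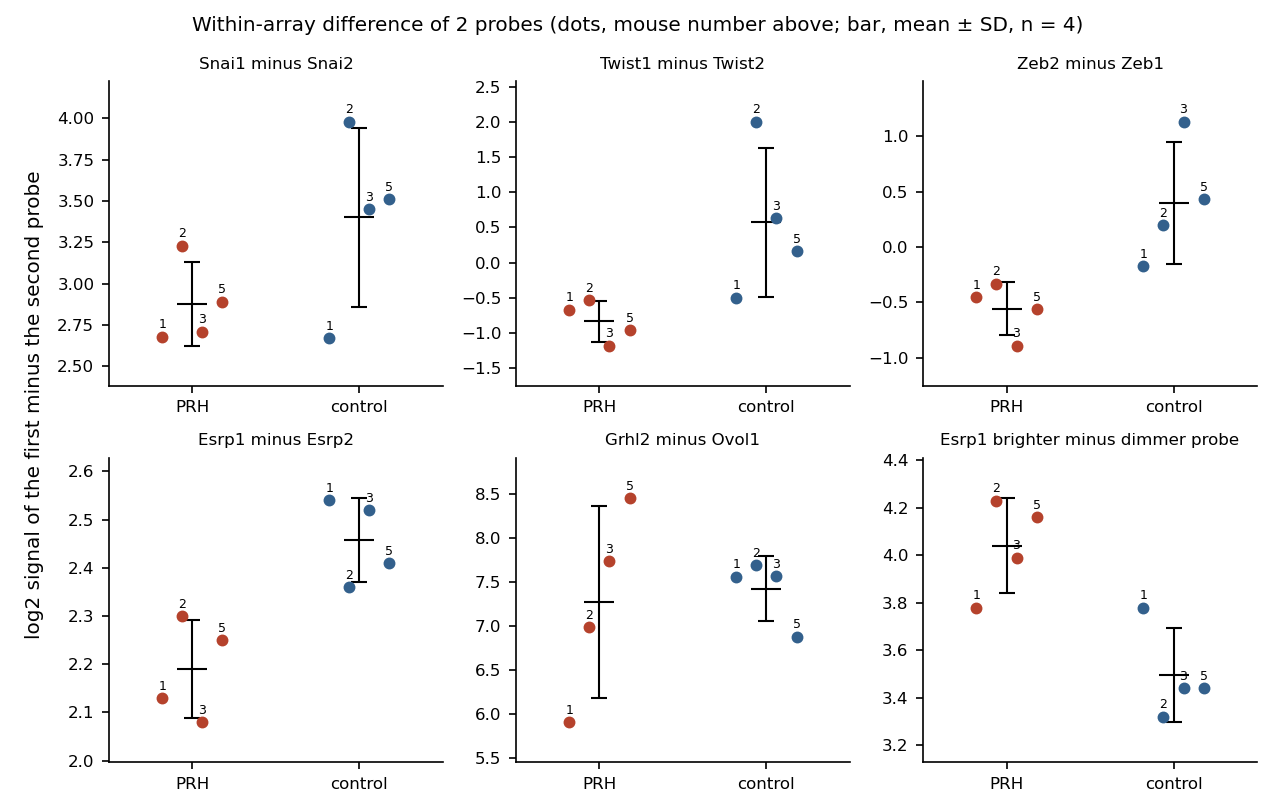
Difference of the log2 signals of 2 probes on the same array, in PRH arrays (red, left) and control arrays (blue, right), for 6 pairs, with the mouse number above each dot. The crossbar is the mean and the whiskers 1 SD (n = 4 each); the groups are separate for Twist1 minus Twist2, Zeb2 minus Zeb1 and Esrp1 minus Esrp2.

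Genes that work with the members were read from 5 lists, with 20 probes of repressor relatives and partners, 18 of epithelial factor relatives, 28 of epithelial adhesion genes, 24 of mesenchymal genes and 18 of genes that ESRP1 and ESRP2 splice. Over all tested probes 26.2% were called (16.1% higher, 10.1% lower), the share to set beside each list below. For the unadjusted counts below, 15465 of the 39463 tested probes had an unadjusted p under 0.05 in either direction. Together 8 of the list probes were called higher and 14 lower. Of these 22 probes 8 held their call in all 5 scalings and without any single array: those of Sin3a, Rcor1, Cebpa, Grhl3, Pdgfra, Mmp2, Fgfr2 and Arhgef11. For Rcor1 and Fgfr2 this holds of 1 probe, and another probe of the gene did not pass. Under spike-in centring no list probe passed. How many of all called probes hold in the same scalings and left-out fits was not counted, so these calls cannot be ranked against the rest.

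The repressor relatives and partners had 2 probes higher and 4 lower of 20 (30.0% called), with a median of -0.26. Sin3a, a scaffold of histone deacetylase complexes, fell by 1.05 in PRH-labelled tumours (adjusted p = 0.0101). Rcor1, the CoREST scaffold through which SNAIL works with the demethylase LSD1, is named after its values were seen, being outside the 4 genes of smallest p. Its dim probe had -0.63 (adjusted p = 0.0152), while its brighter probe did not pass (-0.15, adjusted p = 0.436). Hdac2, a histone deacetylase, had -0.86 (adjusted p = 0.0399), and this call was lost in every fit that left out an array but the one without control 1, and with mouse numbers as blocks (adjusted p = 0.07). Snai3, a further SNAIL gene with dim signals, rose by 1.47 (adjusted p = 0.0119), but had 0.43 (adjusted p = 0.0958) with normexp background correction and 0.55 (adjusted p = 0.105) in the authors' values. Scrt1, another zinc finger gene of the SNAIL superfamily, had 1.22 (adjusted p = 0.0292) and passed in 1 of 5 scalings. Gsc was above background on no array.

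The relatives of the epithelial factors had 1 probe higher and 2 lower of 18 (16.7% called), with a median of 0.0. Grhl3, a grainyhead factor of skin barrier formation, had -1.03, -1.88, -1.84 and -2.19 in PRH-labelled tumours, against -2.81, -3.94, -3.68 and -3.0 in control tumours. The groups were apart, and Grhl3 rose by 1.62 (SE 0.338, adjusted p = 0.0131). The rise was 0.82 (adjusted p = 0.0365) with normexp and 0.98 (adjusted p = 0.0352) in the authors' values. Whether its difference departs from that of Grhl2 was not tested. Cebpa, a factor of differentiation, fell by 0.84 (adjusted p = 0.00877), and by 1.31 after median centring. Ovol2, the relative of Ovol1, had 2.06, 1.88, 2.09 and 1.85 in PRH-labelled tumours, against 2.14, 2.91, 2.73 and 2.86 in control tumours. Its difference of -0.69 (adjusted p = 0.0357) was lost in every fit that left out an array but the one without control 1, and with mouse numbers as blocks (adjusted p = 0.0564). Rbfox2, another splicing factor of the transition, did not pass on its brighter probe (0.49, adjusted p = 0.142) or its dimmer one (-0.17, adjusted p = 0.416). The brighter probe passed with normexp (0.64, adjusted p = 0.0378) and in the authors' values (0.67, adjusted p = 0.0366), and was 0.03 after median centring and 0.3 without control array 1.

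The epithelial adhesion genes, among them the targets of the repressors, had 2 probes higher and 0 lower of 28 by limma (7.14% called), and 4 higher and 1 lower at an unadjusted p under 0.05, with a median of 0.26. Cdh1, the E-cadherin gene that SNAIL, TWIST and ZEB proteins lower, had 2.78, 2.92, 3.2 and 2.78 in PRH-labelled tumours, against 2.77, 3.18, 2.09 and 3.46 in control tumours. The control tumours spread to both sides, and the difference was 0.04 (SE 0.294, adjusted p = 0.923). Marveld3, a tight junction protein, had 1.12 on its brighter probe (adjusted p = 0.00989), with 0.65 (adjusted p = 0.0564) after median centring, while its dimmer probe did not pass (0.23, adjusted p = 0.428). The keratin Krt18 had 0.52 (adjusted p = 0.026) and passed in 1 of 5 scalings. Its partner Krt8 did not pass (-0.44, adjusted p = 0.0763), but did after median centring (-0.9, adjusted p = 0.0144) and quantile normalization (-0.46, adjusted p = 0.0492). The claudin Cldn7 did not pass (0.7, adjusted p = 0.0781), but did with normexp (0.77, adjusted p = 0.0427) and in the authors' values (0.77, adjusted p = 0.0456), and was 0.23 after median centring.

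The mesenchymal genes had 3 probes higher and 4 lower of 24 (29.2% called), with a median of -0.06. Mmp2, a gelatinase, fell by 1.22 (adjusted p = 0.0188) and the growth factor receptor Pdgfra fell by 0.73 (adjusted p = 0.0115) in PRH-labelled tumours. After median centring Pdgfra fell by 1.2. The collagen crosslinker Lox had -0.76 (adjusted p = 0.029) on 1 probe, a call that held only without PRH array 5 or control array 1 among the left-out fits, and its other probe did not pass (-0.26, adjusted p = 0.343). Tagln, an actin-binding protein of smooth muscle, had 0.91 (adjusted p = 0.0243), which was lost without PRH array 1, 3 or 5 or control array 5 and after median centring (0.44, adjusted p = 0.19). The other 2 higher probes were both of Cdh2, N-cadherin, named after their values were seen, with 1.39 (adjusted p = 0.0375) and 0.91 (adjusted p = 0.0321), and each passed in 1 of 5 scalings. Vim, the intermediate filament of mesenchymal cells, had 6.68, 6.69, 6.72 and 6.54 in PRH-labelled tumours, against 6.66, 7.11, 7.8 and 7.25 in control tumours. Like Twist1, it had control tumour 1 beside the PRH arrays. Its difference of -0.55 (SE 0.232, adjusted p = 0.123) passed in each of the 4 other scalings. Among fits that left out an array it passed only without control array 1 (-0.73, adjusted p = 0.0241). The other 7 had adjusted p-values up to 0.228, and the fit with mouse numbers as blocks had 0.104.

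Among genes whose transcripts ESRP1 and ESRP2 splice, 4 of 18 probes were called lower and 0 higher by limma (22.2% called), and 5 lower and 0 higher at an unadjusted p under 0.05, with a median of -0.13. Fgfr2, the receptor whose exon choice defines the ESRP program, had -3.39, -3.03, -3.03 and -2.83 on its brighter probe in PRH-labelled tumours, against -2.16, -1.71, -2.17 and -1.58 in control tumours. The groups were apart by a wide gap, and the difference was -1.16 (SE 0.197, adjusted p = 0.0079). A dimmer Fgfr2 probe, well above background on 3 PRH arrays and 1 control array, did not pass (0.21, adjusted p = 0.787), and which splice form each probe reads was not tested. Arhgef11, an exchange factor for RhoA, fell by 0.99 (adjusted p = 0.00938). Scrib, a polarity scaffold, fell by 0.72 (adjusted p = 0.014), with -0.42 (adjusted p = 0.0576) in the authors' values. Ralgps2 did not pass (-0.9, adjusted p = 0.0943), but passed in the 4 other scalings, with adjusted p-values up to 0.0289. It failed in all 8 fits that left out an array (adjusted p up to 0.186) and was -0.56 without control array 1. These are signals of whole probes, so they do not give the share of an exon.

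**Figure D5:**
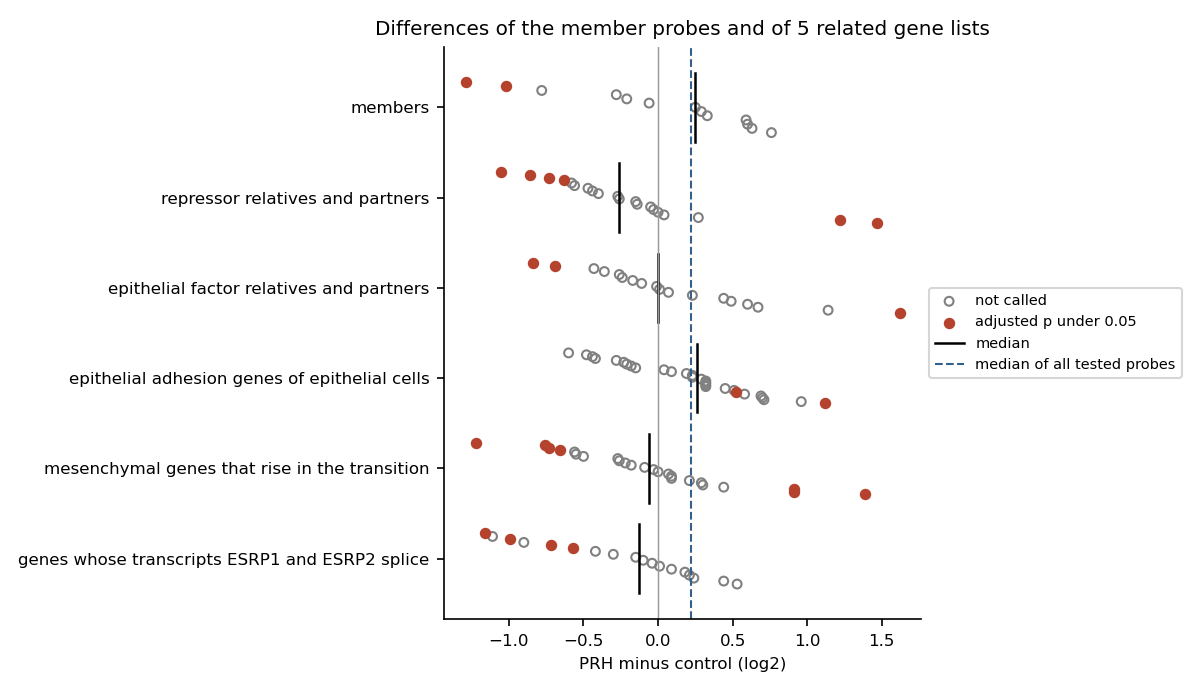
Difference of each tested probe, PRH minus control, on the log2 scale, for the members and for 5 related gene lists. Filled dots passed at an adjusted p under 0.05, open dots did not, black bars are list medians, and the dashed line is the median of all tested probes at 0.22.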

How the data were processed

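The deposited scanner files give linear intensities per spot, made by the authors with Agilent Feature Extraction 10.7.3.1, per the file headers; the submitters' processing notes name version 9.1. A deposited table of the authors' normalized intensities, whose background correction is not given in the sources used here, served as an alternative. For the main values, log2 was taken of the processed signal, less that of the 75th percentile over the 59305 non-control spots of each array. Control spots, and outlier spots of probes with other spots, were left out, and spots of a probe were averaged. Probes well above background on at least 4 of 8 arrays were tested in R 4.3.3 by lmFit and eBayes of limma 3.58.1, with the group alone, two-sided. Probes were named through their RefSeq accessions and a GRCm38.p6 gene table, used for names alone. The fit was tested on simulated data with 200 changed probes. Their set differences were larger than those of the members, so that test does not cover sizes such as theirs.

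Alternatives were median centring, quantile normalization, spike-in centring (8 probes), normexp correction (offset 50, on the median signal, since no mean signal column was used) with quantile normalization, the authors' values, other filters, the brightest probe per gene, the mouse number as a block and each array left out. The 5 scalings counted in the text are the 75th percentile, median, quantile, normexp and the authors' values. The 4 arrays of a group limit the precision, no spot was saturated, all arrays lay on 1 slide scanned on 1 day, and p-values cover the variation among these tumours alone. The PRH and control arrays share mouse numbers, and the main fit leaves these numbers out. Deviations from the group means of same-numbered arrays correlated at 0.2, 0.422, 0.651 and 0.257. The arrays numbered 1, 2 and 3 were each other's best match and those numbered 5 were not. Each number is also a slide row, so a pairing of tumours and an effect of the row cannot be told apart. Named genes were all members, the 4 genes of smallest p of each related list by their brightest probe, Cdh1, Vim and Hhex. The members, lists and alternatives were chosen with earlier results of these data known, so they are no independent support.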

Additional observations from a re-analysis of the deposited data

Results flagged for a closer look

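Of 38 groups of 4 arrays 3 held a value far from the rest, where chance alone flags about 1 in 20 groups. Twist1 was 0.12 on control array 1, with the nearest control value at 0.96. Twist2 was 1.21 on PRH array 3, with the nearest PRH value at 0.82. Grhl2 minus Ovol1 was 6.88 on control array 5, with the nearest control value at 7.56; Ovol1 was well above background on control array 5 and on no other control array. All of these values are log2 levels or log2 differences within an array.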

How the results depend on the processing

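The scaling sets the balance of all calls: 6354 probes were higher and 3973 lower in PRH-labelled tumours in the values reported. The same counts were 3118 and 9859 for median centring, 4468 and 6224 for quantile normalization, 3922 and 6140 for normexp, 3989 and 5886 for the authors' values and 0 and 4 for spike-in centring. The median difference of all probes moved with it, at 0.22, -0.25, 0.01, 0.01, 0.02 and -0.08. Leaving out 1 array gave 6591 calls (without control 5) to 13355 (without control 1), against 10327.

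Members called lower numbered 0 under spike-in centring, 1 with the brightest probe per gene, which keeps 1 Zeb2 probe, and 1 to 3 with an array left out. After quantile normalization 1 member probe was called higher, the brighter one of Grhl2. Signs turned for Snai2 (-0.22 median, -0.0021 quantile, -0.05 spike-in), Zeb1 (0.05 without control 1, 0.03 without control 2, range -0.17 to 0.05 with an array left out), the brighter Esrp1 probe (-0.13 median, -0.02 without control 3, range -0.02 to 0.49), the dimmer Grhl2 probe (-0.18 median, -0.13 quantile, -0.01 spike-in, -0.19 normexp, -0.22 authors) and Cdh1 (-0.42 median, -0.25 spike-in, -0.05 without PRH 3, -0.22 without control 3, range -0.22 to 0.24).

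List probes called higher numbered 2 after median centring, 4 after quantile normalization, 0 under spike-in centring and 3 to 9 with an array left out. Those called lower numbered 34 after median centring, 0 under spike-in centring and 8 to 20 with an array left out. Twist1 minus Twist2 was -1.26 with normexp and -1.31 in the authors' values, and -1.77 to -0.93 with an array left out. The same range was -1.14 to -0.71 for Zeb2 minus Zeb1, -0.3 to -0.23 for Esrp1 minus Esrp2 (-0.03 normexp, -0.06 authors), -0.54 to 0.3 for Grhl2 minus Ovol1 (0.46 normexp, 0.43 authors, 0.3 without PRH 1) and 0.48 to 0.64 for the 2 Esrp1 probes.

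With the mouse number as a replicate block, 13560 probes were called, 2 member probes remained lower and 0 higher, and the list probes numbered 9 higher and 13 lower. The block value of Zeb2 was an adjusted p of 0.0305 for the brighter and 0.0425 for the dimmer probe, and of Twist1 0.0513. The cause of these changes was not tested. Ovol1, near background, is limited by its signal.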
